A study of Mus musculus with 5 samples.

Results

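The long noncoding RNAs (lncRNAs) described here are spliced transcripts with 3 or more exons for which the authors' assembly listed no nearby reference transcript. They were chosen from the deposited expression table as rows typed lincRNA with a length of at least 200 bases, an empty nearest-reference field, and at least 3 exons in the deposited exon map. This gave 2369 transcripts in 1247 loci (a locus is one gene identifier of the authors), out of 8992 transcripts in 5731 loci of their lncRNA catalogue and 37142 transcripts in the whole table. Choosing them used structure and annotation only, and no level. At the edges of the rule, 2464 otherwise eligible transcripts had 2 exons, 32 had enough exons but were shorter than 200 bases, and 1102 of those chosen had exactly 3 exons.

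Levels came from polyadenylated RNA of wild type adult male C57BL/6 mice, in 5 libraries of freshly dissected brain tissue. The subventricular zone (SVZ), which lines the lateral ventricle and holds neural stem cells, had 2 biological replicates. The olfactory bulb (OB), where neurons born in the SVZ arrive, the dentate gyrus (DG), the neurogenic part of the hippocampus, and the striatum (STR), the non-neurogenic control of the design, had 1 sample each. The labels do not say how many animals went into a sample, so the spread between the SVZ samples is the only measure of error between samples, and it may be partly technical.

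As background, lncRNAs are made by RNA polymerase II, and most are capped, spliced and polyadenylated like messenger RNAs but lack a long open reading frame. Many are present at low levels and in few cell types, and some of them act near the place where they are transcribed. In an assembly from short reads, splice junctions give a transcript its strand and its structure, and a transcript with 2 or more junctions rests on more such evidence than one with a single junction.

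To give these RNAs a face, an internal exon is shown for 6 of them, picked after their levels were seen: a pair present in every region, a pair highest in OB, and a pair from loci whose summed level was high in SVZ and STR. Each was matched by strand, chromosome and the ordered lengths of its introns and internal exons to a transcript of the later GENCODE M21 annotation (build GRCm38), which supplied the name and the letters. The second exon is in capitals, and 12 bases of the exons on either side, as spliced, are in lower case.
Gm26619 exon 2, every region: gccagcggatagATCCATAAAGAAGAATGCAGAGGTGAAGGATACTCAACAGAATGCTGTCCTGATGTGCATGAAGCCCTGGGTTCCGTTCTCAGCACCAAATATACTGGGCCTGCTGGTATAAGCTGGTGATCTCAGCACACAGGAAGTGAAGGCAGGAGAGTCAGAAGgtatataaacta
1700113A16Rik exon 2, every region: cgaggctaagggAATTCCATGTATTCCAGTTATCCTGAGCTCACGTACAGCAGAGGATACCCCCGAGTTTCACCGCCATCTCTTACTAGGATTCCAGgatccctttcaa
Gm36251 exon 2, highest in OB: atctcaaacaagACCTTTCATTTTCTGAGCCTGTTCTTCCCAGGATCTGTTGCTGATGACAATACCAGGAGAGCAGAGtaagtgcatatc
Ttc39aos1 exon 2, highest in OB: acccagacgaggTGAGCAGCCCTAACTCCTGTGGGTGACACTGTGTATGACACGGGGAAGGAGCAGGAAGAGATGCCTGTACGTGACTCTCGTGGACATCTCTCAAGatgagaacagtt
Gm39043 exon 2, locus high in SVZ and STR: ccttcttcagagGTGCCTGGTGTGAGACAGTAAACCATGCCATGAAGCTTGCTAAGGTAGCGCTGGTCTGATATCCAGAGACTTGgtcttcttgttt
4833415N18Rik exon 2, locus high in SVZ and STR: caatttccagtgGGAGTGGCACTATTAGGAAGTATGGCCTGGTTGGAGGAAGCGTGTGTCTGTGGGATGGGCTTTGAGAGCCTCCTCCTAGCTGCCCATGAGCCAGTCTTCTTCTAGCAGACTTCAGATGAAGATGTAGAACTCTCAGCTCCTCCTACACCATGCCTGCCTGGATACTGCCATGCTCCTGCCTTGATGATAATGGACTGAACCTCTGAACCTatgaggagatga
These exons were 158, 85, 66, 95, 73 and 210 bases long, and 47.0% to 54.7% of their bases were G or C.

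The libraries set limits that touch every comparison. Values are FPKM, which divide fragments by transcript length and by the size of the library, and without read counts the depth is unknown; a transcript listed at 0 can be a failed estimate. Over 17525 coding transcripts, SVZ sample 2 resembled STR most (Pearson r = 0.939 on log2 values) and SVZ sample 1 resembled OB most (0.880), with 0.848 between both SVZ samples. The design text mentions both single and paired-end reads but not which sample had which, and no label puts the libraries into sets; what lies behind this likeness was not tested. In the DG library 80.1% of these lncRNAs were listed at 0, and in the other libraries 55.3% to 58.7%. Most regional marker genes were highest in the labelled tissue: 5 of 5 olfactory bulb neuron markers were highest in OB, 4 of 4 dentate granule neuron markers in DG, 4 of 4 ependymal markers in SVZ, and 2 of 5 neuroblast and cycling cell markers in SVZ with the other 3 in OB. Striatal projection neuron markers were highest in STR for 3 of 5 and in SVZ for the other 2. Oligodendrocyte markers were highest in STR for 3 of 4 and in SVZ for 1, choroid plexus markers in DG for 2 of 3 and in SVZ for 1, and meningeal fibroblast markers in OB for 2 of 3 and in DG for 1. Among 9 long-known lncRNAs such as Malat1, Meg3 and Miat, 7 were at 1 FPKM or more in every library.

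The transcripts were mostly compact chains of few exons, with a long tail. They had a median of 4 exons, and 1102 had 3, 564 had 4, 353 had 5 and 350 had 6 or more, up to 33. Their spliced length had a median of 996 bases (200 to 20184) and their genomic span a median of 10048 bases (421 to 605062). The median internal exon was 127 bases long and the median intron 1410.5 bases. Of their 7582 introns, 75 (0.989%) were shorter than 50 bases, compared with 0.284% of the introns of the 2-exon lncRNAs without a reference and 0.139% of those in 2035 lncRNAs of 3 or more exons with a reference.

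**Figure D1:**
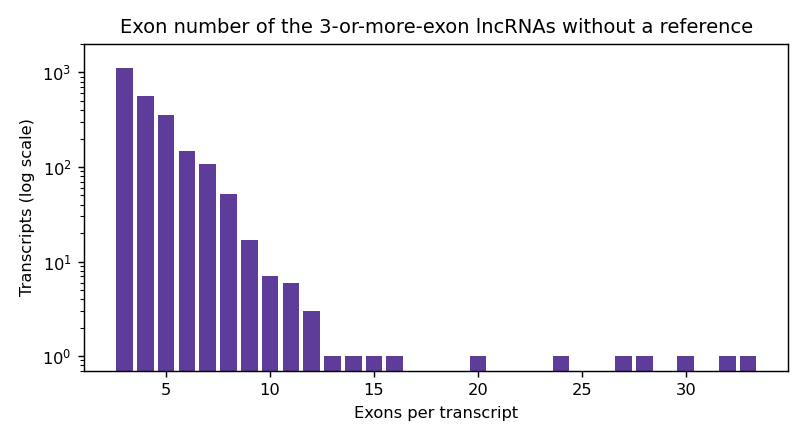
Number of transcripts (log axis) at each number of exons, for the 2369 lncRNAs of 3 or more exons without a nearby reference. The count is highest at 3 exons (1102) and the tail ends with a single transcript of 33 exons.

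The most exons were found in TCONS_00032241 (chromosome 8, 36828335 to 36881103, plus strand, mm9), with 33 exons over 52769 bases, 6.66 kb from the claudin gene Cldn23. Its levels were 5.13 and 5.76 FPKM in SVZ and 5.29 in STR, while OB was listed at 0 and DG at 9.14e-06. So the transcript with the most exons was found in SVZ and STR and was at or near 0 in OB and DG. This did not hold for every isoform of the locus. TCONS_00032239, with 32 exons over the same span, was at 2.92 and 0 FPKM in SVZ, 0.268 in OB, 0.361 in DG and 0.0807 in STR. Summed over its isoforms, the locus was at 54.6 and 28.8 FPKM in SVZ, 40.7 in STR, 2.14 in OB and 1.80 in DG. With 1 transcript taken from each locus, the next in exon number after TCONS_00032241 was TCONS_00000108 with 24. Then came a transcript whose chain is that of Setd1b, a histone methyltransferase gene, with 16, and chains of Ace3 with 14 and the pseudogene Itih5l-ps with 13. The Setd1b chain (TCONS_00025129) was at 14.7 and 6.67 FPKM in SVZ, 22.2 in OB, 14.9 in DG and 6.72 in STR. The lower values were those of SVZ sample 2 and STR, and the chains of Ace3 and Itih5l-ps stayed under 0.1 FPKM in all 5 libraries.

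Span and abundance did not go together at the top. The widest transcript, with the chain of Gm14643 on chromosome X, spanned 605 kb and was listed at 0 in all 5 libraries, as was Gm11867 on chromosome 4, which spanned 484 kb. Of the 5 widest, TCONS_00017246 on chromosome 2 (508 kb) was the only one that reached 1 FPKM in a library, with 2.996 in DG. The chain of 2610307P16Rik (425 kb, 57.4 kb from Sox4, a transcription factor gene of immature neurons) was at 0.544 and 0.278 FPKM in SVZ, 0.465 in OB, 0 in DG and 0.0473 in STR. The longest spliced transcript, TCONS_00027450 with 20184 bases, was at 1.04 FPKM in STR and at 0.0208 or less in the other libraries. Its locus was not absent there: summed over all catalogue isoforms, it was at 2.22 and 1.67 FPKM in SVZ, 1.27 in OB, 1.53 in DG and 2.46 in STR.

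About 1 in 10 overlapped a coding gene's locus, and many were in the annotation of later years. Of the 2369 transcripts, 254 (10.7%) overlapped the locus of a coding RefSeq gene, 819 (34.6%) lay within 10 kb of one and 551 lay more than 100 kb away. Of the 2-exon lncRNAs without a reference, 4.67% overlapped a coding locus, and of the lncRNAs of 3 or more exons with a reference, 69.0% did. Whether the libraries kept strand is not stated in any source used here, so reads of overlapping genes cannot be told apart. An identical chain of introns and internal exons was present in GENCODE M21 for 939 transcripts (39.6%), which belonged to 751 loci (60.2%). Among catalogue transcripts with a noncoding RefSeq reference and such a match, 742 of 781 (95.0%) had the name of that reference. The later gene type was lincRNA for 559, antisense for 150 and processed transcript for 138.

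A minority had the chain of a gene later typed as coding. There were 45 of them, and the chain was that of a protein-coding transcript for 25, of a processed transcript for 9, of a nonsense-mediated decay transcript for 7 and of a retained-intron transcript for 4. Tunar, known as a regulator of neural differentiation, and Gm28729 were among the 25. Levels of matched and unmatched transcripts were not ordered one way: 15.5% of the 939 matched ones reached 1 FPKM in any library, and 20.98% of the 1430 unmatched ones did, but in OB the shares were 8.41% and 7.06%, and 35.5% and 37.8% were listed at 0 everywhere.

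Most were scarce. In SVZ samples 1 and 2, OB, DG and STR, 265, 245, 180, 179 and 231 of the 2369 were at 1 FPKM or more, which is 11.2%, 10.3%, 7.60%, 7.56% and 9.75%. OB and DG were thus lowest. In all, 874 were listed at 0 in all 5 libraries, 446 (in 296 loci) reached 1 FPKM in at least 1 library and 72 did in all 5. Only 38 reached 10 FPKM in any library, and 6 did in all 5. When all catalogue isoforms of a locus were summed, 380 of the 1247 loci reached 1 FPKM in any library and 116 in all 5.

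Their detection was lower than that of comparable lncRNAs in each library. The share at 1 FPKM or more was 13.9% to 17.9% for 2-exon lncRNAs without a reference, 14.3% to 16.8% for lncRNAs of 3 or more exons with one, and 55.0% to 59.7% for coding transcripts. The difference from the 2-exon set was -6.04 percentage points ± 0.686 (SD over 5 libraries), lower in 5 of 5, and that from the referenced set was -6.56 ± 1.42, also lower in 5 of 5. The exact two-sided sign-flip permutation test over libraries gave p = 0.0625 for each. This is the smallest that 5 libraries allow, so the test could not reach 0.05 whatever the data. Benjamini-Hochberg adjustment over 4 such tests gave 0.125 for each. The other tests, of the median FPKM, gave p = 0.125 for each set before adjustment by the same permutation test. Counted over loci in place of transcripts the differences were smaller, -3.78 and -4.35 points, and at a threshold of 0.1 FPKM they were larger, -20.5 and -13.1. Without the 5 loci with the most isoforms they were -5.03 and -5.57. Among transcripts of 500 to 2000 bases they were -5.94 and -7.45 points. The share that reached 1 FPKM in any library was 21.6% at 3 exons, 19.0% at 4, 13.3% at 5 and 15.4% at 6 or more.

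**Figure D2:**
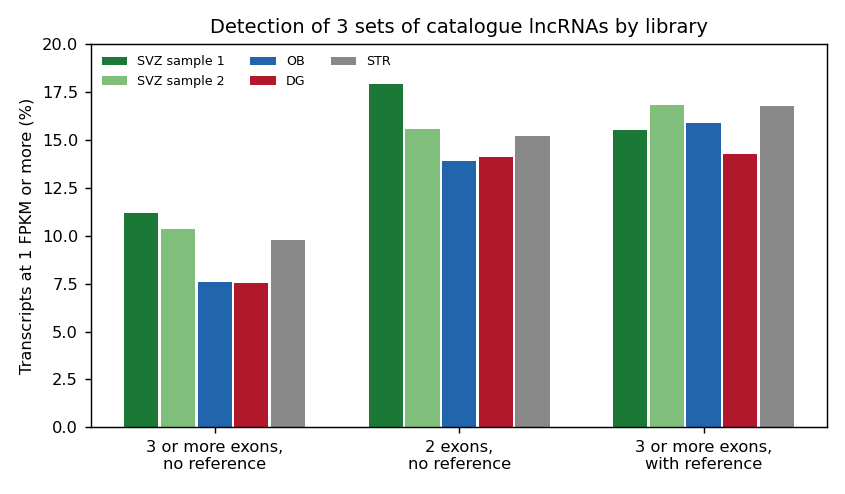
Share of transcripts at 1 FPKM or more (y axis, percent) for 3 sets of catalogue lncRNAs, with 1 bar for each library. All 5 bars of the unreferenced set of 3 or more exons (7.56% to 11.2%) are below every bar of the other sets, the lowest of which is 13.9%.

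Among the most abundant, a group of loci was present at like levels in all regions. Gm26619 (TCONS_00008137, chromosome 13, 98521067 to 98530920, plus strand, mm9, an intergenic lncRNA 138 kb from Rgnef) was at 122 and 90.8 FPKM in SVZ, 147 in OB, 116 in DG and 92.5 in STR. The values overlapped: SVZ sample 2 was below STR and sample 1 above DG. Its OB level was 0.66 ± 0.48 log2 units above STR (estimate ± SE, limma, adjusted p = 0.53), where the lone OB and STR samples are assumed to vary like the SVZ pair. The antisense transcript 1700113A16Rik (TCONS_00021006, chromosome 3, 87975482 to 87981707, minus strand), 2.39 kb from the neuronal transcription factor gene Mef2d, was at 22.6 and 17.8 FPKM in SVZ, 24.3 in OB, 24.8 in DG and 16.2 in STR. OB and DG were slightly above the SVZ samples and STR slightly below them.

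Another abundant member came from a locus with many isoforms. TCONS_00020841 on chromosome 3 (88029597 to 88033873, plus strand) was the top isoform of a locus of 44 unreferenced isoforms in each of the 5 libraries, and 12.9 kb from Rhbg, an ammonium transporter gene. It was at 36.4 and 28.7 FPKM in SVZ, 37.9 in OB, 28.2 in DG and 24.2 in STR, and took 57.4% to 63.5% of the summed level of those isoforms.

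TCONS_00029420 (chromosome 7, 68672047 to 68760221, minus strand, 5 exons) was low in one region. It was at 16.3 and 19.9 FPKM in SVZ, 24.0 in DG and 19.6 in STR, against 3.42 in OB, and OB lay outside the values of the other 4 libraries. OB was 2.22 ± 0.44 log2(FPKM + 1) units below STR (limma, adjusted p = 0.46). Also among the 10 highest were Zfp950, whose nonsense-mediated decay chain was at 10.7 FPKM in OB and 15.9 to 21.5 elsewhere, and Gm12940, which was at 50.1 FPKM in SVZ sample 2 and 46.8 in STR but at 1.13 in SVZ sample 1, 10.4 in OB and 2.23 in DG. Gm12940 overlaps the locus of Zmym1, and its SVZ samples were on opposite sides of OB and DG.

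A group of 9 loci was present in both SVZ samples and STR and low in OB and DG. In each, the lowest of the former 3 libraries was at least 2 log2(FPKM + 1) units (4-fold on that scale) above the higher of the latter pair, when all catalogue isoforms of the locus were summed. The 9 were counted among 380 loci at 1 FPKM or more, and the same pattern was present in 0.425% of 16453 loci of all kinds. The opposite pattern was present in none of the 380 and in 0.286% of all loci. Over single transcripts, 5 of 446 had the pattern, against 0.409% of all transcripts. Without SVZ sample 1, 14 loci had it, including all 9. These sums include isoforms that have 2 exons or a reference; with the unreferenced isoforms of 3 or more exons alone, 7 loci had the pattern, 6 of them among the 9.

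The highest was XLOC_023637 (chromosome 8, 36828335 to 36881103), the locus of the 33-exon transcript. Its 10 isoforms summed to 54.6 and 28.8 FPKM in SVZ and 40.7 in STR, against 2.14 in OB and 1.80 in DG. The choice of the pattern fixes this separation. The neighbour Cldn23 was at 0.396 FPKM or less in all 5 libraries. The 5 isoforms of XLOC_021729 (chromosome 7, 90963131 to 90995179) summed to 8.56, 11.2 and 16.8 FPKM in SVZ sample 1, SVZ sample 2 and STR, with 0.00946 in OB and 0 in DG. The one with the chain of Gm39043 was at 1.13, 1.70 and 2.08 FPKM in the former 3, with 1.13e-07 in OB and 0 in DG. Its coding neighbour 1700026D08Rik, 19.8 kb away, was high in SVZ alone, at 15.6 and 8.69 FPKM against 0.178 to 0.759 elsewhere.

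XLOC_017772 (chromosome 4, 124200178 to 124234751) lay 100 kb from Pou3f1, which encodes a POU-domain transcription factor. The locus was at 10.9 and 14.6 FPKM in SVZ, 23.2 in STR, 1.29 in OB and 0.442 in DG. Pou3f1 was at 18.9 and 19.1 FPKM in SVZ, 24.0 in STR, 4.53 in OB and 1.07 in DG, with the same order of regions. XLOC_005827 (chromosome 12, 110737381 to 110774560) lay in the interval between Dlk1 and Meg3, which are imprinted genes, 35.8 kb from Dlk1 and 4.65 kb from Meg3. It was at 3.65 and 4.11 FPKM in SVZ and 3.39 in STR, with 0.0322 in OB and 0 in DG. Dlk1 was at 9.42 and 4.68 FPKM in SVZ and 1.17 in STR, with 0.857 in OB and 0.106 in DG, while Meg3 was at 549 FPKM or more in every library.

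The other 5 loci of the pattern were XLOC_002537, 31.4 kb from Btbd11, XLOC_015842, 8.02 kb from Ctso, XLOC_001129, 538 kb from Dsel, XLOC_019234, 202 kb from Hnrnpd, and XLOC_008940, 21.8 kb from Cpped1. Their SVZ and STR sums were 4.61 to 14.8 FPKM and their OB and DG sums 0 to 1.01. In XLOC_008940 the isoform with the chain of 4833415N18Rik was at 0.338 FPKM in SVZ sample 1, 1.73 in SVZ sample 2 and 1.80 in STR. XLOC_002537 was at 9.17 and 6.61 FPKM in SVZ and 8.77 in STR, with 0.0381 in OB and 0 in DG. Striatal projection neuron markers ran the same way over the libraries, with a sum of 3745 and 2782 FPKM in SVZ, 2660 in STR, 277 in OB and 49.9 in DG; all 5 were found and none was at 0 in any library. Oligodendrocyte markers summed to 2752, 2347, 2675, 1268 and 720 FPKM in SVZ sample 1, SVZ sample 2, STR, OB and DG. Their part in the pattern was not tested, and in bulk tissue fewer cells of a type and less RNA per cell cannot be told apart.

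**Figure D3:**
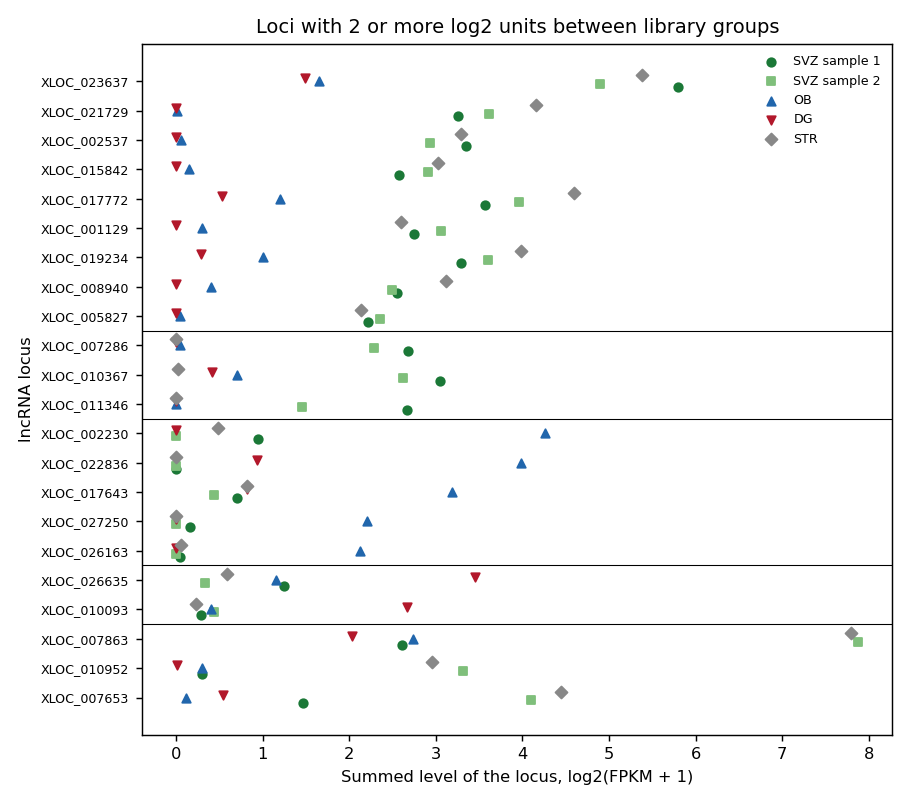
Summed level of each locus, as log2(FPKM + 1), with 1 point for each library. From top to bottom the blocks are loci in both SVZ samples and STR (9), loci enriched in SVZ (3), in OB (5) and in DG (2), and loci high in SVZ sample 2 and STR (3); the first block shows OB and DG at the left, from 0 to 2.14 FPKM.

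SVZ-enriched means at least 2 log2 units above each other region. Of the 380 loci at 1 FPKM or more, 3 were SVZ-enriched, where 0.547% of all loci were. Of 446 single transcripts, 2 were (0.448%), close to the 0.453% of all transcripts. XLOC_010367 (chromosome 17, 81296155 to 81334800), 9.17 kb from Tmem178, was at 7.29 and 5.16 FPKM in SVZ, 0.623 in OB, 0.334 in DG and 0.0123 in STR. XLOC_007286 on chromosome 14, 22.9 kb from the defensin gene Defb42, was at 5.42 and 3.88 FPKM in SVZ and at 0.0313 or less elsewhere. XLOC_011346, 160 kb from Smad2, a mediator of TGF-beta signalling, was at 5.35 and 1.73 FPKM in SVZ and listed at 0 elsewhere. Leaving out SVZ sample 1 left 1 such locus, and leaving out SVZ sample 2 gave 5.

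Beside these values, the 4 ependymal markers summed to 192 and 81.1 FPKM in SVZ and 2.20 to 9.81 elsewhere, and 1 of them was at 0 in a library. The neuroblast and cycling cell markers summed to 135 and 88.4 FPKM in SVZ, 256 in OB, 14.8 in DG and 6.04 in STR. Their part was not tested. Among single transcripts, the largest SVZ level over STR was that of TCONS_00017652 (chromosome 2, 26099049 to 26104952, minus strand, 6.11 kb from Qsox2, a sulfhydryl oxidase gene). It was at 12.7 and 8.93 FPKM in SVZ, 0.537 in OB, 0.294 in DG and 0.687 in STR, which is 2.79 ± 0.47 log2 units above STR (limma, adjusted p = 0.97). An isoform that differs from it by 3 bases was at 7.49 and 1.09 FPKM in SVZ and 6.55 in STR, and the whole locus was 1.05 log2 units above STR. Gm28729 (TCONS_00034268), with 11 exons, was at 3.07 and 2.16 FPKM in SVZ and at 0.219 or less elsewhere.

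OB-enriched loci numbered 5 of 380, where 1.57% of all loci were OB-enriched. So were 4 of 446 single transcripts, where 1.57% of all transcripts were. XLOC_002230 (chromosome 10, 24269247 to 24316914) summed to 18.2 FPKM in OB, against 0.932 and 0 in SVZ, 0 in DG and 0.394 in STR. Its single unreferenced member, with the chain of Gm15270, made up only 0.808 FPKM of the OB sum. The locus overlaps that of Ctgf, which encodes a secreted matrix protein and was itself at 44.3 FPKM in OB against 1.75 to 4.44 elsewhere; their reads cannot be told apart. XLOC_022836 on chromosome 7, 628 kb from Arrdc4, was at 14.8 FPKM in OB, 0.908 in DG and 0 in the other 3. XLOC_017643 on chromosome 4, 0.944 kb from Ttc39a, summed to 8.10 FPKM in OB and 0.356 to 0.769 elsewhere, and its member with the chain of Ttc39aos1 was at 2.21 in OB and 0 to 0.765 elsewhere. Gm36251 (XLOC_026163, chromosome 9) was at 3.36 FPKM in OB and at 0.0401 or less elsewhere, and XLOC_027250 on chromosome X was at 3.61 in OB and 0.117 or less elsewhere.

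Each OB value rests on 1 library. With the unreferenced isoforms of 3 or more exons alone, 4 loci were OB-enriched, 3 of them among the 5. Scaling the libraries by median ratios over coding transcripts left 2 of the 5 loci. Olfactory bulb neuron markers summed to 1146 FPKM in OB and 6.30 to 18.1 elsewhere, with 2 of 5 at 0 in a library, and the 3 meningeal fibroblast markers summed to 2202 in OB and 143 to 273 elsewhere, almost all from Ptgds; their part was not tested. TCONS_00029382, a 288-base transcript on chromosome 7, 176 kb from the imprinted gene Ube3a, had the largest OB level over STR. Its OB level was 38.1 FPKM and its STR level 1.2, but SVZ gave 23.2 and 0.429, so the SVZ pair was further apart than many regions.

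DG-enriched were 2 of 380 loci, where 0.936% of all loci were, and 4 of 446 single transcripts, where 1.01% of all transcripts were. TCONS_00036031 (chromosome X, 100257437 to 100258064, plus strand, 314 bases) was at 9.91 FPKM in DG, 1.37 and 0.257 in SVZ, 1.22 in OB and 0.498 in STR. TCONS_00013328 (chromosome 17, 34936860 to 34937668), 0.624 kb from the steroid hydroxylase gene Cyp21a1, was at 5.33 FPKM in DG and 0.172 to 0.352 elsewhere. Tunar (XLOC_005311, chromosome 12, 106574804 to 106622141) missed the rule at the locus level but was highest in DG, at 27.4 FPKM, with 7.61 and 4.42 in SVZ, 10.2 in OB and 2.13 in STR. Its transcript TCONS_00006787 was 3.15 ± 0.97 log2 units higher in DG than in STR (limma, adjusted p = 0.51). Taken as (DG minus SVZ sample 1) minus (STR minus SVZ sample 2), the difference for this transcript was smaller, 1.81 log2 units. The dentate granule neuron markers summed to 639 FPKM in DG and 5.54 to 8.18 elsewhere, with none at 0. Their part was not tested.

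STR-enriched were 1 of 380 loci, where 0.322% of all loci were, and 6 of 446 single transcripts, where 0.645% of all transcripts were. Those 6 came from 4 loci, among them XLOC_010189 and XLOC_010800, which lie opposite each other on chromosome 17. The number enriched turned on the SVZ samples. Without SVZ sample 1 it was 0 loci and 1 transcript, and without SVZ sample 2 it was 6 loci and 12 transcripts. The 1 STR-enriched locus was XLOC_007863 (TCONS_00009717, chromosome 14, 93001779 to 93003683, minus strand), 409 kb from the protocadherin gene Pcdh9. It was at 220 FPKM in STR and 235 in SVZ sample 2, against 5.11 in SVZ sample 1, 5.65 in OB and 3.07 in DG. SVZ sample 2 lay beside STR and SVZ sample 1 between DG and OB. High levels in SVZ sample 2 and STR and low ones in the other 3 libraries were shown by 3 of 380 loci, beside 0.924% of all loci. These were XLOC_007863, Gm26510 and the pseudogene Gm36448. The inverse was shown by none, beside 0.0972% of all loci. Of 446 single transcripts, 8 in 6 loci were high in SVZ sample 2 and STR alone (1.79%), close to the 1.64% of all transcripts. These 8 include isoforms of XLOC_010189 and XLOC_010800. Another 2 were high in SVZ sample 1, OB and DG alone (0.448%, beside 1.29% of all transcripts).

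Over the 3 comparisons with STR, these lncRNAs were compared by the size of the difference, and more were lower than higher in OB and DG. Counting transcripts at 1 FPKM or more in either region and 2 log2 units or more apart, SVZ had 3 of 369 higher and 6 lower than STR, where 2.31% and 0.929% of all transcripts were. OB had 14 of 304 higher and 32 lower (4.61% and 10.5%), where 8.93% and 4.89% of all transcripts were. DG had 13 of 309 higher and 38 lower (4.21% and 12.3%), where 6.54% and 6.46% of all transcripts were. Isoforms of 1 locus count separately here: the higher and lower transcripts came from 13 and 21 loci for OB, and 12 and 28 for DG. The median difference was 0.06, -0.38 and -0.40 log2 units for SVZ, OB and DG, beside 0.21, 0.46 and 0.22 for all transcripts. The 3 comparisons share the STR library.

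These counts carry limits. Median ratio scaling moved the median of all transcripts by -0.26, -0.49 and -0.28 log2 units and gave 7 higher and 42 lower in OB, and 13 higher and 50 lower in DG. For SVZ the direction turned with the setting: 46 were higher and 25 lower with a pseudocount of 0.1 FPKM, 4 and 2 as locus sums, and 2 and 2 without the chromosome 17 loci. Without SVZ sample 2 there were 11 higher and 16 lower. For OB, leaving out the chromosome 17 loci gave 12 higher and 25 lower, and locus sums gave 12 and 22. For DG the same settings gave 12 higher and 31 lower, and 5 and 25. In the other pairs of regions, SVZ had 21 of 380 higher and 7 lower than OB (2.8% and 4.35% of all transcripts), and 27 of 389 higher and 13 lower than DG (4.74% and 3.55%). OB had 11 of 262 higher and 15 lower than DG (5.67% and 2.59%). No transcript of any kind passed an adjusted p of 0.05 in limma in any of the 6 pairs, in which the SVZ pair gave the only residual degree of freedom. At an unadjusted p under 0.05, 11 members were higher and 7 lower in SVZ than in STR, 20 and 38 in OB, and 26 and 45 in DG; for SVZ against OB the counts were 39 and 23, for SVZ against DG 56 and 35, and for OB against DG 27 and 30.

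Single libraries of one region were as far apart as some of different regions. The SVZ samples differed by 2 log2 units or more in 24 of 341 transcripts (7.04%), with 11 higher in sample 1 and 13 lower, where 3.82% and 3.48% of all transcripts were. SVZ sample 1 and OB differed in 22 of 310 (7.10%), with 16 higher in SVZ and 6 lower (2.53% and 2.86% of all transcripts). SVZ sample 1 and DG differed in 37 of 327 (11.3%), with 27 higher in SVZ and 10 lower (5.27% and 2.74%). SVZ sample 2 and STR differed least, in 7 of 293 (2.39%), with 3 higher in SVZ and 4 lower (1.7% and 1.05%). DG and STR differed most, in 51 of 309 (16.5%). Coding transcripts had 6.79%, 5.58%, 7.82%, 2.78% and 12.2% for the same 5 pairs.

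**Figure D4:**
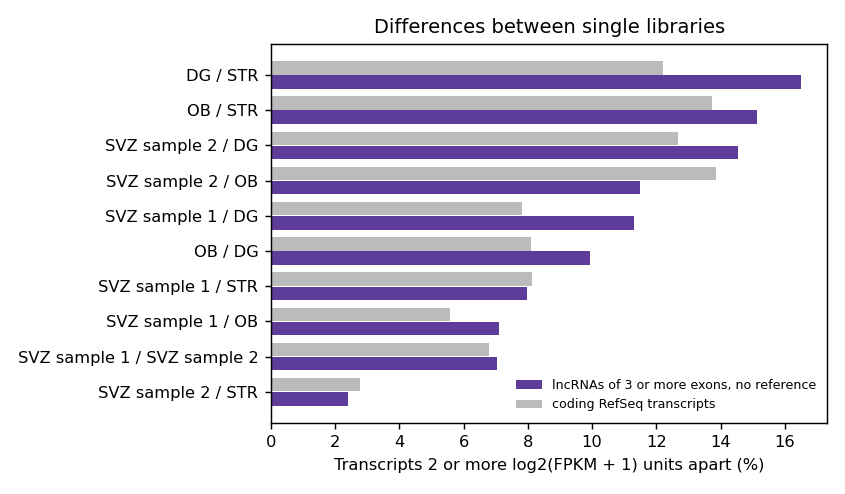
Share of transcripts that differ by 2 or more log2(FPKM + 1) units (x axis, percent) for each of the 10 pairs of libraries, for the unreferenced lncRNAs of 3 or more exons and for coding transcripts. The SVZ sample 2 and STR pair is lowest at 2.39%, and the pair of SVZ samples (7.04%) is close to the pair of SVZ sample 1 and OB (7.10%).

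Isoforms were unevenly spread over the loci. A single unreferenced isoform was present in 907 loci and 5 or more in 57, and the 5 richest loci held 340 of the 2369 transcripts. These were XLOC_000496 on chromosome 1 with 97, XLOC_006822 on chromosome 13 with 78, XLOC_007886 on chromosome 14 with 70, XLOC_024779 on chromosome 9 with 51 and XLOC_015259 on chromosome 3 with 44. Many isoforms did not mean much RNA: the 97 of XLOC_000496 summed to 0.249 to 1.54 FPKM and 71 of them were listed at 0 throughout, and 49 of the 51 of XLOC_024779 were. XLOC_006822, which overlaps the zinc finger gene locus Zfp825, summed to 10.2 to 13.2 FPKM. Some zinc finger genes have similar copies that can share reads, and whether this locus does was not tested.

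The leading isoform of a locus often differed between libraries. Of 52 loci with 2 or more members and a sum of 1 FPKM or more in every library, 18 had the same top isoform in all 5. SVZ sample 2 and STR shared the top isoform in 39 of 52, as did SVZ sample 1 and OB, while the SVZ samples shared it in 29. There were 290 pairs of isoforms whose every boundary lay within 10 bases, made of 371 members in 58 loci. Of the 31 such pairs at 1 FPKM or more, 4 changed order by at least 1 log2 unit in each direction between libraries.

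Outside the 4 pairs that changed order, the leading isoform also differed in XLOC_010800 on chromosome 17 (39979940 to 39984198, minus strand). Its isoform TCONS_00013579 had 159 and 2.87 FPKM in SVZ, 144 in OB, 151 in DG and 15.1 in STR, and TCONS_00013582, another isoform of the same span, was at 20.6 FPKM in SVZ sample 2 and 34.6 in STR but at 0 in the other 3. Summed over all catalogue isoforms, the locus was at 242 and 284 FPKM in SVZ, 341 in OB, 199 in DG and 415 in STR. These sums include short 2-exon isoforms. Of these, TCONS_00013588 gave 181 FPKM in SVZ sample 2, TCONS_00013589 195 in OB and TCONS_00013587 321 in STR. The isoforms of 3 or more exons alone summed to 159 and 98.8 FPKM in SVZ, 144 in OB, 153 in DG and 93.0 in STR. On that sum STR was lowest, not highest. TCONS_00013579 lay between 2.87 and 159 FPKM and TCONS_00013582 between 0 and 34.6. In XLOC_010406 on chromosome 17, 0.044 kb from Scaf8, isoforms of 1199 and 1204 bases, likewise not among the 4 pairs, were high in different libraries. The former was at 5.94 FPKM in DG and at or near 0 elsewhere, the latter at 10.3 and 0.215 in SVZ, 11.2 in OB, 3.41 in DG and 0.229 in STR, and the locus at 12.3, 7.05, 14.4, 10.3 and 6.80.

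**Figure D5:**
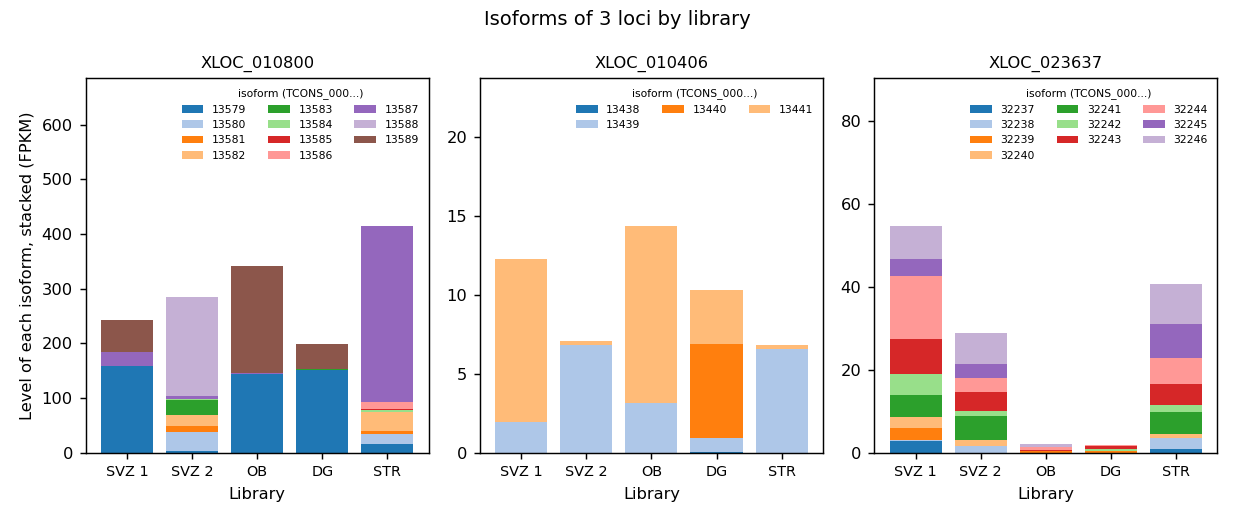
Stacked levels of the catalogue isoforms (y axis, FPKM) in the 5 libraries for 3 loci, with 1 colour per isoform. In XLOC_010800 and XLOC_010406 different isoforms lead in different libraries, while in XLOC_023637 the whole stack is low in OB (2.14 FPKM) and DG (1.80).

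XLOC_010800 lies opposite XLOC_010189 on the plus strand, which held the most abundant member of all. That member, TCONS_00013339 (39982807 to 39984866), was at 45.2 and 217 FPKM in SVZ, 102 in OB, 45.5 in DG and 520 in STR. STR was highest, and the SVZ samples lay on both sides of OB. It is 359 kb from Pgk2. In GENCODE M21, the lncRNA genes Gm26917, Gm42418 and AY036118 and the ribosomal RNA gene CT010467.1 lie 358 to 361 kb before Pgk2. Without these chromosome 17 loci, the transcripts lower in SVZ than in STR numbered 2 in place of 6.

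The coding transcripts whose values followed those of the most abundant members most closely over the 5 libraries were found by the distance between standardised log2 values, as a description. For TCONS_00013339 they were Add1, Fam131b and Dusp3 (distance 0.0334 to 0.186), and for Gm26619 they were Metrn, Gbf1 and Kdm5c (0.0315 to 0.0522). For TCONS_00009717 they were transcripts of Rasl2-9-ps, Rpl38 and Prdx6-ps1. The Rpl38 transcript, which encodes a ribosomal protein, was at 4.84 and 215 FPKM in SVZ, 5.95 in OB, 3.41 in DG and 236 in STR, almost the values of TCONS_00009717 in each library.

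Among enriched single transcripts whose nearest coding gene was at 1 FPKM or more, the neighbour was highest in the same region for 0 of 1 in SVZ, 1 of 4 in OB, 1 of 3 in DG and 1 of 2 in STR. For the whole lncRNA catalogue it was 0 of 2 in SVZ, 7 of 17 in OB, 22 of 44 in DG and 3 of 18 in STR. Over 14024 coding genes, 16.8% were highest in SVZ, 48.1% in OB, 19.3% in DG and 15.8% in STR.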

How the data were processed

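Polyadenylated RNA of 5 brain libraries (2 SVZ, 1 each of OB, DG and STR) was analysed from the deposited files. The submitters' processing notes list CASAVA, TopHat 1.2.0, Cufflinks 1.0.0 and mm9 without roles or order. The authors deposited FPKM values per transcript and the exon map of their lncRNA catalogue on mm9. Coordinates are from these files, counted from 1. Values were used as log2(FPKM + 1). limma 3.58.1 (R 4.3.3, trended empirical Bayes, Benjamini-Hochberg adjustment) was fitted over all transcripts at 1 FPKM or more in any library, with 1 residual degree of freedom. The adjustment covered transcripts at 1 FPKM or more in either region of a pair. The limma fit was also tested on simulated data. Because it called nothing, differences are counted by size (2 log2 units). SVZ values are means of both log2 values. Of the lowest values, 21.4% to 33.6% lay within 0.1 of a whole step, so reads could not be recovered. The members and lists were chosen with earlier results of these data known. Named transcripts are the 10 highest, the 5 most enriched in each region, the 5 with the largest difference in each direction from STR, the 5 with most exons, largest span and greatest length, and the 5 loci with most isoforms; loci by pattern, Gm15270, Ttc39aos1, Gm39043 and 4833415N18Rik were named after their values were seen. Alternatives were the pseudocount, the filter, median ratio scaling, sums over the gene identifier, a bridge through the SVZ, and each SVZ sample left out. No mm9 sequence was used here. Results that need items withheld for evaluation are not reported here.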

Additional observations from a re-analysis of the deposited data

How the results depend on the processing

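No paired analysis was possible because replicate numbers were given for the SVZ alone. Of the alternatives, 101 left a count or share within 1.5 times its main value or on the same side, and 40 moved it. Some of the 101 could not have moved. A gap of 2 log2(FPKM + 1) units already needs a level above 1 FPKM, so a looser filter could not change counts by size. Most limma alternatives called nothing, like the main setting, and shares were judged by their sign alone. The tally is therefore no measure of how stable the results are. A pseudocount of 0.1 FPKM gave 46 higher and 25 lower transcripts for SVZ against STR, 42 and 90 for OB, and 47 and 111 for DG, and 26, 16, 25 and 18 transcripts enriched in SVZ, OB, DG and STR; for loci it gave 23, 20, 10 and 2, and 25 in both SVZ samples and STR over OB and DG. Sums over the gene identifier gave 4 higher and 2 lower for SVZ, 5 higher and 25 lower for DG, and 2 DG-enriched and 1 STR-enriched. Median ratio scaling gave 7 higher for OB, 2 OB-enriched loci and 3 STR-enriched loci. The bridge through the SVZ ((OB minus SVZ sample 1) minus (STR minus SVZ sample 2)) gave 6 higher for OB. Leaving out the chromosome 17 loci gave 2 higher and 2 lower for SVZ. Leaving out each SVZ sample gave 3 to 11 higher and 4 to 16 lower for SVZ against STR, 3 to 4 SVZ-enriched and 1 to 12 STR-enriched transcripts, 1 to 5 SVZ-enriched and 0 to 6 STR-enriched loci, and 9 to 14 loci in both SVZ samples and STR over OB and DG. Without the filter on low values, limma called 382 transcripts for SVZ against STR, 1718 for OB, 564 for DG, 1351 for SVZ against OB and 1445 for OB against DG; 51, 200, 71, 148 and 161 of them were unreferenced lncRNAs of 3 or more exons, of which 3, 15, 8, 11 and 18 were at 1 FPKM or more. The sign turned for TCONS_00013579 against STR, to -0.28 (OB) and -1.06 (DG) as a locus sum, which includes 2-exon isoforms. By the bridge it turned to -2.20 and -2.13. The sign also turned by the bridge for TCONS_00020806 in OB (-0.047) and TCONS_00009717 in OB (0.21). Without a turn of sign, the bridge took TCONS_00029382 in OB from 4.15 to 0.070 and TCONS_00013441 in OB from 3.32 to 0.095. In DG it took the Tunar transcript TCONS_00006787 from 3.15 to 1.81. Little changed were TCONS_00029472 (3.22) and TCONS_00002446 (-3.39) in OB, and TCONS_00013440 (2.80) and TCONS_00009583 (2.73) in DG. The cause was not tested. The alternatives for loci and for the chromosome 17 loci were chosen after seeing the data. Depth is unknown, so no counting error can be given.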
